A study of Rattus norvegicus with 16 samples.

Results

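Hippocampus of old, exercise-trained rats was set against hippocampus of young, sedentary rats, to ask how far the old trained tissue lay from the young untrained state. The comparison takes 8 of the 16 libraries of the series, 4 old trained and 4 young sedentary, chosen by their labelled age and training and not by any measured value. All rats were wild-type male Fischer-344, an inbred strain common in aging research. Old trained rats were labelled 20 months old and were exercise-trained for 10 weeks, and young sedentary rats were labelled 6 months old and stayed sedentary over the same 10 weeks. Per the labels' protocols these were the ages at which rats were obtained, so each age was higher by the training period at tissue collection, 2 days after the last behavioral test. All 4 groups went through those tests. The other 8 libraries, 4 old sedentary (20 months) and 4 young trained (6 months), are shown beside the comparison where its meaning depends on them. The groups differ in both age and training, so their direct difference cannot separate one from the other.

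The hippocampus is a forebrain region needed for forming memories of places and events. It holds excitatory pyramidal and granule neurons, inhibitory interneurons, glia and blood vessels, and its dentate gyrus makes new neurons in adult rodents. Aging in this region is known for fewer new neurons and more reactive glia and inflammation, and running exercise in rodents is known for more new neurons and more growth factor expression. None of these processes could be read here gene by gene. The deposited table lists Ensembl gene IDs without symbols, the reference gene table used here matched 0 of the 32754 IDs, and genes are therefore given by ID, with at most 2 that rose and 2 that fell. For the same reason the tissue was not checked against marker genes, and no marker of another cell type or brain region could be set beside the results. In bulk tissue, fewer cells of a type and less RNA per cell cannot be told apart.

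The depths of the groups overlapped. Total counts were 8630396, 12555333, 13949316 and 13117914 in old trained replicates 1 to 4, and 10037058, 14576687, 10334164 and 11056479 in young sedentary replicates 1 to 4. The mean totals were 12063240 and 11501097 (exact permutation p = 0.686, 2-sided, n = 4 per group, adjusted p = 0.686 over 3 tests). Old trained libraries held on average 18665 genes with a count and young sedentary libraries 18813 (exact permutation p = 0.6, 2-sided, n = 4 per group, adjusted p = 0.686). After the filter on low counts, 15035 of the 23249 IDs with a count in any library were tested.

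Old trained libraries were farther from young sedentary libraries than the latter were from each other, taken over all genes tested. The distance of a library was taken as the root mean square difference of log2 CPM (read counts normalised to library size, on a log2 scale) from the mean of 3 young sedentary libraries over the 15035 genes. Young sedentary replicates 1 to 4 lay at 0.324, 0.333, 0.306 and 0.255 from the mean of the other 3. Old trained replicates 1 to 4 lay at 0.556, 0.445, 0.439 and 0.491, and their mean was 0.483 ± 0.054 (SD, n = 4), against 0.304 ± 0.035 (SD, n = 4) in young sedentary libraries. Every old trained library was farther out than every young sedentary library. Pairs of 1 old trained and 1 young sedentary library were 0.526 apart on average, while pairs within the old trained group were 0.362 apart and pairs within the young sedentary group 0.372 apart. The excess of 0.159 had an exact permutation p = 0.0286, 1-sided for a larger distance and the smallest that 4 against 4 can give here (n = 4 per group). Adjusted over the same 3 tests it was 0.0857, which does not pass 0.05.

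**Figure D1:**
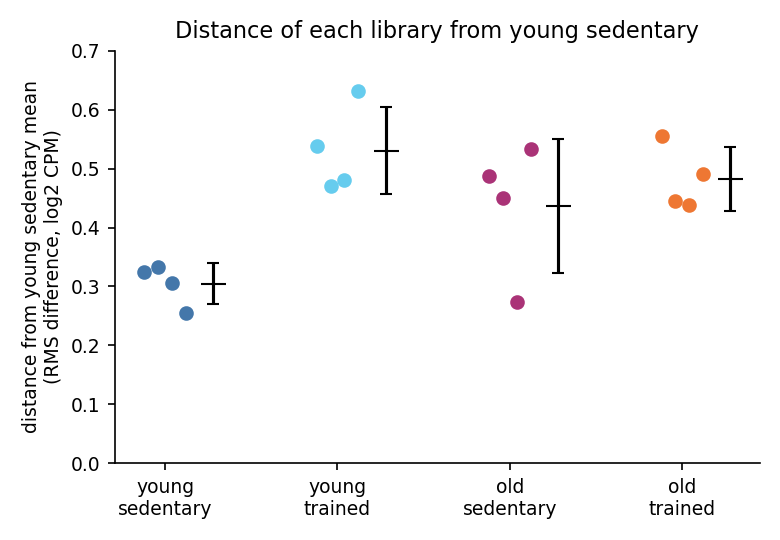
Root mean square difference in log2 CPM (y axis) of each library from the mean of 3 young sedentary libraries, for the 4 groups (x axis). Points are libraries, and the bar beside them gives mean and SD (n = 4). Old trained libraries sit between 0.439 and 0.556, above all young sedentary libraries, and old sedentary replicate 3, at 0.273, sits among the young sedentary libraries.

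The other groups, measured from the same young sedentary libraries, lay at similar distances. Old sedentary libraries had a mean of 0.436 ± 0.114 (SD, n = 4), and young trained libraries one of 0.530 ± 0.074 (SD, n = 4). Old sedentary libraries spread the most, from 0.273 to 0.534, so old trained and old sedentary libraries overlapped on this measure. Between single libraries, old trained rats were 0.487 on average from young trained rats, 0.526 from young sedentary rats and 0.674 from old sedentary rats. The largest of the 6 mean distances between groups was the 0.742 between young trained and old sedentary rats. These distances share libraries and were not tested against each other.

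Gene by gene, 663 of 15035 genes (4.41%) differed between old trained and young sedentary rats at adjusted p below 0.05 in edgeR's quasi-likelihood test. Most were lower in old trained rats: 529 genes (3.52%) were lower and 134 (0.891%) were higher. The lower genes also changed more. At least 2-fold differences were found in 346 genes that were lower and 26 that were higher, and at least 4-fold differences in 142 and 7. In log2 units the called differences had a median size of 1.18 (median SE 0.24), against 0.13 over all genes tested. Over all genes the median log2 fold change was 0.01 after scaling. At an unadjusted p below 0.05 there were 2605 genes.

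The called genes separated the groups library by library. All 4 old trained libraries were above all 4 young sedentary libraries in 126 of the 134 higher genes, and all were below in 509 of the 529 lower genes. Over all genes tested the groups did not overlap in 13.6%, 5.81% with old trained above and 7.79% with old trained below. These genes were chosen on the same libraries, so their separation describes them and is no test.

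The counts of called genes moved with single libraries. Leaving out young sedentary replicate 1 or 3 gave 718 or 509 called genes, leaving out young sedentary replicate 2 or 4 gave 268 or 264, and leaving out old trained replicate 1, 2, 3 or 4 gave 322, 273, 359 or 402. Most of these genes were among the 663: 589 of the 718, 456 of the 509, 264 of the 268, 262 of the 264, 311 of the 322, 273 of the 273, 348 of the 359 and 369 of the 402. Without young sedentary replicate 2, 3 or 4 the higher genes numbered 44, 75 or 41, and without old trained replicate 1, 2 or 3 they numbered 54, 43 or 64. Without old sedentary replicate 3, which enters through the spread of each gene, they numbered 257. The lower genes numbered 224 or 223 without young sedentary replicate 2 or 4, and 268, 230, 295 or 299 without old trained replicate 1, 2, 3 or 4.

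The lower genes were mostly genes of low mean level over all 16 libraries. That mean includes the old trained libraries, where they were chosen as low, so the choice itself moves them toward the low class. In young sedentary replicates 1 to 4 alone their median level was 2.88, 3.51, 3.18 and 3.50 log2 CPM. When the tested genes were put in 3 classes of equal size by mean level, 329 of the 529 lower genes were in the low class (up to 3.36 log2 CPM on average), 144 in the middle class and 56 in the high class (from 5.39). The higher genes ran the other way, with 43, 31 and 60. In the high class the called genes were thus nearly balanced, and their median size was 0.41 on the log2 scale, against 1.55 in the low class. The standard error of a fold change also depended on level, with medians of 0.25, 0.12 and 0.09 from the low to the high class, so small differences could be called mainly in well expressed genes.

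**Figure D2:**
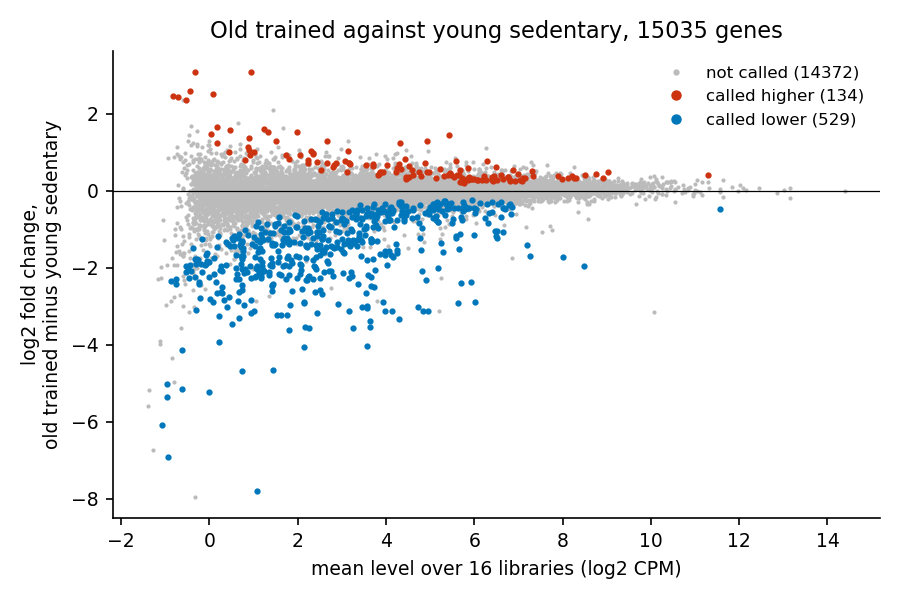
Log2 fold change of old trained minus young sedentary rats (y axis) against the mean level over all 16 libraries in log2 CPM (x axis), 1 point per gene. Grey points did not pass the test, red points (134) were called higher and blue points (529) were called lower. The blue points are most numerous and reach farthest at low levels.

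The level of the 529 lower genes as a group was also taken in each library. Their median level was 2.88, 3.51, 3.18 and 3.50 log2 CPM in young sedentary replicates 1 to 4, and 1.60, 1.87, 2.02 and 1.80 in old trained replicates 1 to 4. Young sedentary replicates 2 and 4 were highest, and the groups did not overlap. The genes were chosen on these libraries, so that separation is no test. The other 8 libraries entered this contrast only through the filter, the scaling and the spread of each gene. Their median was 3.41, 3.82, 3.09 and 3.24 in old sedentary replicates 1 to 4 and 1.88, 2.60, 2.13 and 2.30 in young trained replicates 1 to 4. All old sedentary libraries thus stood above all trained libraries of either age for this set. Other groups can lie above old trained libraries by the choice of genes alone, so their place is no test. The median over all tested genes stayed between 4.36 and 4.48 in every library.

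The 134 higher genes differed less. Their median level was 4.61, 4.35, 4.58 and 4.61 log2 CPM in young sedentary replicates 1 to 4 and 5.32, 5.08, 5.11 and 4.97 in old trained replicates 1 to 4. It lay between 4.78 and 4.85 in old sedentary libraries and between 4.90 and 5.04 in young trained libraries. On this set both other groups lay above young sedentary rats, and all old sedentary libraries lay below all old trained libraries. The genes were chosen as low in young sedentary and high in old trained libraries. Other groups can lie between them by that choice alone, so their place is no test.

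Genes close to absent in old trained rats made up the extreme of the lower side. There were 17 genes that averaged 1 CPM or more in young sedentary libraries and had no more than 3 counts in any old trained library. Their summed level was 31.1, 69.7, 17.8 and 66.1 CPM in young sedentary replicates 1 to 4 and 1.43, 1.62, 1.44 and 1.54 CPM in old trained replicates 1 to 4. Young trained rats had 3.80 ± 3.80 CPM (SD, n = 4), with 9.48 CPM in replicate 2 and at most 2.18 CPM elsewhere, and old sedentary rats had 94.4 ± 48.7 CPM (SD, n = 4). Of the 17 genes, 16 passed the filter and 10 were called lower. The reverse pattern was found in 2 genes. Their summed level ran from 0.27 to 0.383 CPM in young sedentary libraries and was 2.39, 6.63, 3.24 and 1.54 CPM in old trained replicates 1 to 4. These genes were chosen for their levels in the libraries described, so no test is given.

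Among called genes that averaged 1 log2 CPM or more, the 2 largest falls were ENSRNOG00000012478 and ENSRNOG00000057031. ENSRNOG00000012478 had 94, 351, 48 and 305 counts (9.39, 24.0, 4.59 and 27.5 CPM) in young sedentary replicates 1 to 4, and 0, 1, 1 and 1 counts in old trained replicates 1 to 4. Young sedentary replicates 2 and 4 were again the highest, and the groups did not overlap. Over the groups it had 798 and 3 counts, which after scaling is a 274-fold ratio (93.5 to 1330 as the 95% exact binomial interval, which covers counting error alone). The fitted log2 fold change was -7.81 (SE 1.02, edgeR adjusted p = 0.00229), a value that depends on the prior count because so few counts remained. Young trained rats had 1 count in all, and old sedentary rats averaged 41.0 ± 22.1 CPM (SD, n = 4).

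ENSRNOG00000057031 stood at 5.70, 14.8, 3.35 and 10.6 CPM in young sedentary replicates 1 to 4 and at 0.239, 0.485, 0.288 and 0.308 CPM in old trained replicates 1 to 4. The groups did not overlap, and its log2 fold change was -4.66 (SE 0.90, edgeR adjusted p = 0.0103). Old sedentary rats averaged 19.3 ± 9.06 CPM (SD, n = 4), and young trained replicates 1 to 4 stood at 0.263, 3.99, 0.268 and 0.467 CPM. Young trained replicate 2 lay within the young sedentary range, and the other young trained libraries did not.

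The 2 largest rises under the same rule were ENSRNOG00000020151 and ENSRNOG00000046850. ENSRNOG00000020151 stood at 0.999, 1.71, 0.574 and 1.44 CPM in young sedentary replicates 1 to 4 and at 3.23, 3.23, 4.96 and 3.31 CPM in old trained replicates 1 to 4, with no overlap. Its log2 fold change was 1.61 (SE 0.34, edgeR adjusted p = 0.0141). Old sedentary rats were higher still, at 6.67 ± 1.86 CPM (SD, n = 4), and young trained rats stood at 0.902 ± 0.437 CPM (SD, n = 4), close to young sedentary rats. Old trained rats thus lay between old sedentary and young sedentary rats for this gene. The log2 fold change of old trained minus old sedentary rats was -0.85 (SE 0.29, edgeR adjusted p = 0.0401), and that of old sedentary minus young sedentary rats was 2.45 (SE 0.33, edgeR adjusted p = 0.0014).

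ENSRNOG00000046850 showed another order. It stood at 1.70, 1.09, 2.58 and 1.80 CPM in young sedentary replicates 1 to 4 and at 5.14, 4.93, 5.25 and 5.01 CPM in old trained replicates 1 to 4, with no overlap. The log2 fold change was 1.52 (SE 0.42, edgeR adjusted p = 0.0489). Young trained rats averaged 5.27 ± 0.508 CPM (SD, n = 4), as high as old trained rats, with a log2 fold change of old trained minus young trained rats of -0.05 (95% interval -0.83 to 0.73). Old sedentary rats were at 0.0896, 0.252, 2.47 and 0.787 CPM in replicates 1 to 4. This call was marginal. It was lost on leaving out any 1 of 13 of the 16 libraries (edgeR adjusted p from 0.0522 to 0.169), while the log2 fold change stayed between 1.33 and 1.76.

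**Figure D3:**
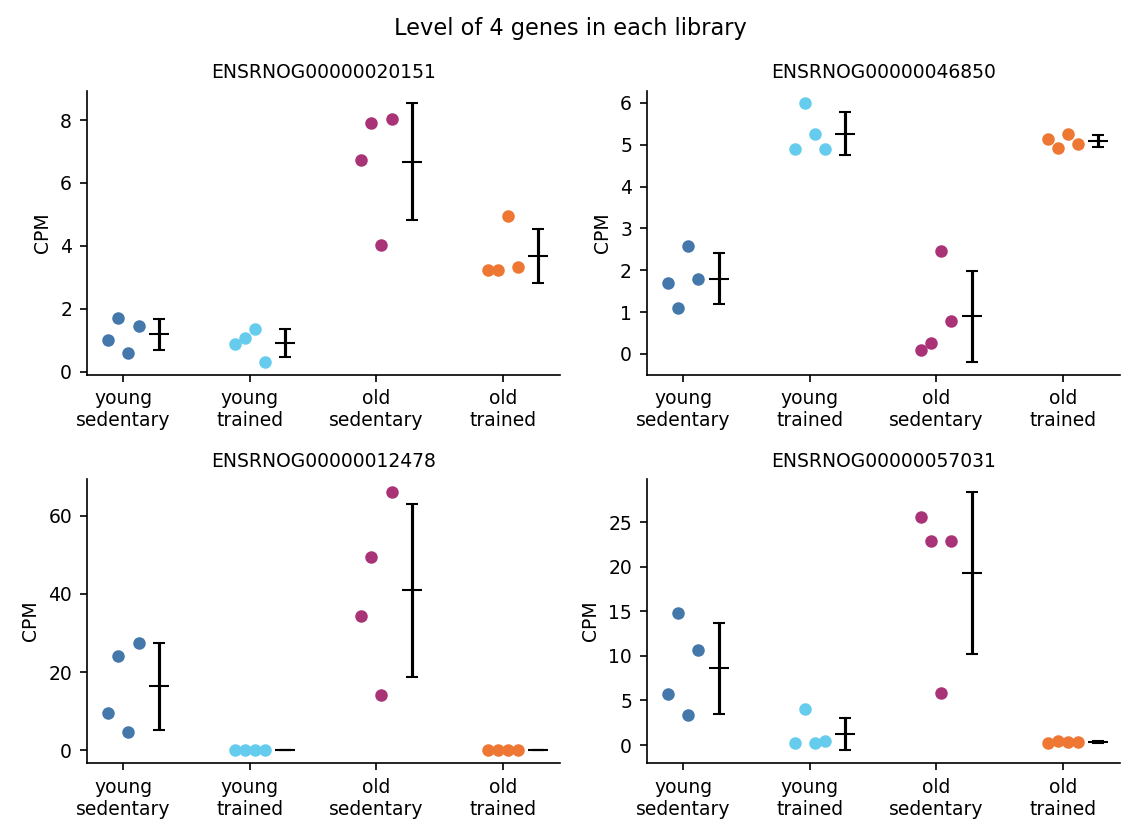
CPM (y axis) in each library for 4 genes, by group (x axis). Among called genes that averaged 1 log2 CPM or more, these are the 2 that rose most and the 2 that fell most in old trained against young sedentary rats. Points are libraries, and the bar beside them gives mean and SD (n = 4). In the upper row ENSRNOG00000020151 is high in both old groups and ENSRNOG00000046850 in both trained groups, and in the lower row both genes are low in all trained libraries but young trained replicate 2 for ENSRNOG00000057031, at 3.99 CPM.

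The called genes were also read in a comparison whose means have no library in common with theirs, young trained minus old sedentary rats. It also sets trained against sedentary rats, but young against old. That comparison called 5764 genes (38.3%), 2656 higher (17.7%) and 3108 lower (20.7%). Of the 529 genes lower in old trained than in young sedentary rats, 379 (71.6%) were also lower in young trained than in old sedentary rats, and 7 (1.32%) were higher. These 379 genes were 12.2% of the 3108 lower genes. The median log2 fold change of the 529 genes was -1.07 in young trained minus old sedentary rats, against -0.04 over all genes tested. The means of these comparisons come from different rats, but the filter, the scaling and the spread of each gene come from all 16 libraries.

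The higher genes were mixed. Of the 134, 65 (48.5%) were also higher in young trained than in old sedentary rats, against a background of 17.7%. These were 2.45% of the 2656 higher genes. In the opposite direction 35 (26.1%) were called, against a background of 20.7%. Among the 26 genes at least 2-fold higher, 9 (34.6%) were higher and 11 (42.3%) lower in young trained than in old sedentary rats. Over all genes tested these shares were 17.7% and 20.7%. ENSRNOG00000046850 was of the first kind, at 2.56 on the log2 scale (SE 0.46, edgeR adjusted p = 0.000505), and ENSRNOG00000020151 of the second, at -2.89 (SE 0.34, edgeR adjusted p = 1.78e-05). Across all 15035 genes, which are not independent replicates, the fold changes of the comparisons correlated (Pearson r = 0.60, Spearman rho = 0.44). With each library left out in turn, the number of genes lower in both ran from 167 (without young sedentary replicate 4) to 493 (without old sedentary replicate 3), and the number higher in both from 17 to 163 under the same settings.

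**Figure D4:**
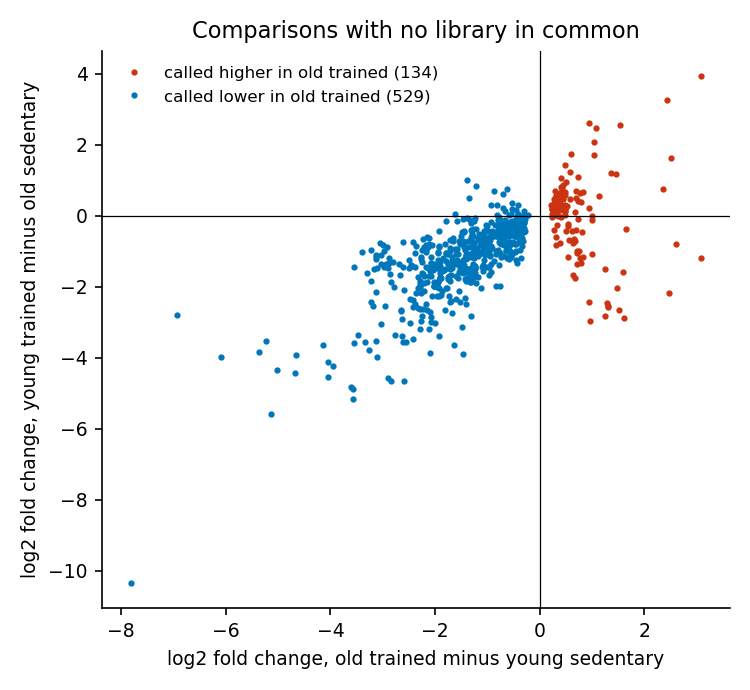
Log2 fold change of young trained minus old sedentary rats (y axis) against that of old trained minus young sedentary rats (x axis) for the 663 genes called in the latter. Most blue points (529 lower genes) lie below 0 on both axes, and red points (134 higher genes) lie on both sides of 0 on the y axis.

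Other comparisons that share libraries with this one give the same genes further values. Over the 529 lower genes the median log2 fold change from young sedentary rats was -1.35 in old trained, -1.02 in young trained and 0.09 in old sedentary rats. Over the 134 higher genes it was 0.49 in old trained, 0.29 in young trained and 0.08 in old sedentary rats. The 26 genes at least 2-fold higher had median folds over young sedentary rats of 2.76 in old trained, 1.5 in young trained and 2.38 in old sedentary rats. All 3 use the same young sedentary libraries, so these medians stand side by side and are no independent support for each other. Over all genes tested the median log2 fold changes were 0.01, -0.02 and 0.01.

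How many genes of old trained rats were at the young sedentary level depended on the margin. A gene was put at the level only when the 95% interval of its fold change lay wholly within 1.5-fold either way. That held for 10104 of 15035 genes (67.2%), of which 73 were also called, with a small but detectable difference. A further 590 genes (3.92%) were called and not within the margin, and 4341 (28.9%) were undetermined, neither called nor shown to be within it. The shares followed expression level. In the high class 90.8% of genes were at the level and 7.88% undetermined, in the middle class 81.9% and 15%, and in the low class 28.9% and 63.7%. With a narrower margin of 0.32 on the log2 scale either way 5036 genes (33.5%) were at the level, and with one of 2-fold 13029 genes (86.7%) were.

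The question of which genes reach, miss or pass the young level was asked of the 227 genes (1.51%) that differed between old and young sedentary rats. In old sedentary rats the difference was at least 1.5-fold in 93 higher and 34 lower genes, and 33 genes had their whole interval within the margin. A gene at the level in old trained rats was therefore not always outside the margin in old sedentary rats. Of the 227 genes, 140 (61.7%) were at the young sedentary level in old trained rats, against 67.2% of all genes tested. With 1 library left out this share ran from 34.2% to 63.5%. Another 32 (14.1%) were short of it, called with the same sign as in old sedentary rats. Past it, called with the opposite sign, were 2 genes, and 53 (23.3%) were undetermined. Both comparisons use the young sedentary libraries, and no test of these counts is given.

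The 158 genes that were higher in old sedentary rats (1.05% of those tested) and the 69 that were lower (0.459%) fell into these classes differently. Of the 158, 87 (55.1%) were at the young sedentary level, 32 (20.3%) short of it, 1 past it and 38 (24.1%) undetermined. The median log2 fold change of the 158 from young sedentary rats was 0.65 in old sedentary and 0.23 in old trained rats. All 32 genes short of the level were in this set, with medians of 1.09 in old sedentary and 0.76 in old trained rats, and in 0 of the 32 was the old trained difference the larger. ENSRNOG00000020151 was among them. Of the 69 lower genes, 53 (76.8%) were at the level, 0 short of it, 1 past it and 15 (21.7%) undetermined, and their medians were -0.58 in old sedentary and 0.06 in old trained rats. Both sets were chosen for a called difference in old sedentary rats, which by itself favours smaller differences in old trained rats. The smaller old trained values, also in the 32 genes, are therefore no test of a return to the young level. The difference between these sets was not tested either.

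**Figure D5:**
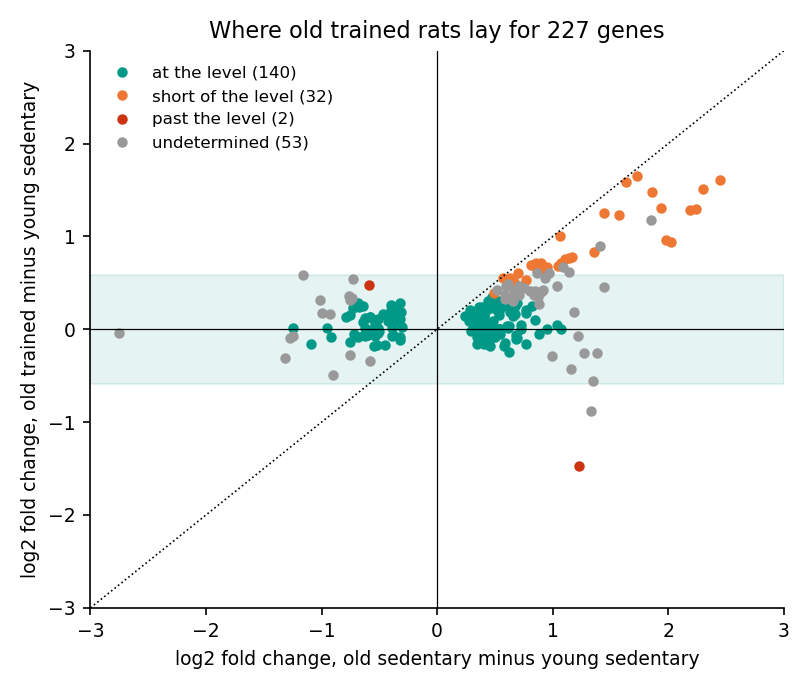
Log2 fold change of old trained minus young sedentary rats (y axis) against old sedentary minus young sedentary rats (x axis) for the 227 genes called in the latter. The shaded band is 1.5-fold either way and the dotted line marks equal change. Green points (140) had their whole interval in the band, orange points (32) were called with the same sign, red points (2) with the opposite sign, and grey points (53) were undetermined.

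These counts depended on which sedentary rats were included. Old sedentary replicate 3 lay at 0.273 from the young sedentary mean, and without it 2007 genes were called between old and young sedentary rats, of which 1274 (63.5%) were at the level in old trained rats, 47 short of it and 139 past it. Without young sedentary replicate 1 or 3, or old sedentary replicate 1, 2 or 4, the called genes numbered 44, 38, 45, 95 and 58. Of these, 17 (38.6%), 13 (34.2%), 18 (40%), 50 (52.6%) and 25 (43.1%) were at the level, and 18, 18, 21, 27 and 22 were short of it. Without young trained replicate 1 or old trained replicate 2 they numbered 142 and 129, with 77 (54.2%) and 64 (49.6%) at the level and 27 and 16 short of it. With 1 surrogate variable, a covariate estimated from the counts, 44 genes were called, 17 (38.6%) at the level and 18 short of it. These are the counts found without young sedentary replicate 1, so the variable is no separate check from leaving out that library.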

How the data were processed

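Hippocampal poly(A) RNA of 16 rats, 4 per group, was sequenced on an Illumina instrument, per the labels' protocols. The authors deposited raw counts per Ensembl gene ID, with no normalization. The submitters' processing notes name the build Rnor_6.0 and the tools TopHat2 2.1.1, HTSeq, SAMtools, Trimmomatic, FastQC and DESeq2. The strand setting and the annotation release are not given in the sources used here. Counts of antisense or overlapping genes, or of near-identical copies, are therefore uncertain. The labels' protocols mention 5 libraries per condition and 4 rats per group. Lanes are not given, and a lane difference cannot be told apart from a group difference.

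Counts were tested with edgeR 4.0.16 in R 4.3.3 (filterByExpr, TMM, glmQLFit robust, glmQLFTest, 2-sided, Benjamini-Hochberg over 15035 genes), with 1 mean per group over all 16 libraries and 12 residual degrees of freedom. The standard error is the fold change divided by the square root of F. Log2 CPM used a prior count of 2. All pairs of libraries within a group differed by more than sampling noise, and p-values measure the spread between rats.

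The test was run on simulated counts for this comparison. They were drawn independently around a common mean per gene, with only old trained rats changed. They thus held no shifts of whole libraries, and recovery in the real counts was not measured. Recovery was 0% of 199 genes changed 1.2-fold (among 14920 tested) and 50% of 198 changed 1.5-fold (among 14887). It was 82.3% of 198 changed 2-fold (among 14896) and 97.5% of 197 changed 4-fold (among 14895). Of the genes changed 1.5-fold 1.01% were put at the young level, and of those changed 1.2-fold 54.8%. Of the unchanged genes, 71.9% to 72.4% were put at the level, so a gene can miss it without any simulated difference.

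Alternatives were DESeq2 1.42.0 size factors and Wald test, limma 3.58.1 voom, no filter, a filter of 1 CPM in 8 libraries, 1 surrogate variable (sva 3.50.0), a replicate block, the 8 libraries alone, and each library left out. The comparison, its 43 gene lists (not used, for want of symbols) and its tests were chosen with earlier results of these data known. The rule for named genes (the largest called changes at 1 log2 CPM or more, with a symbol) lost its symbol criterion and was limited to 2 rises and 2 falls. The comparison of young trained with old sedentary rats, the distances, the sets near zero and the level classes were added after the files were seen.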

Additional observations from a re-analysis of the deposited data

Results flagged for a closer look

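In 28 sets of 4 libraries (the CPM of the 4 named genes, the distance from young sedentary libraries, total counts and genes with a count, in each group), 5 sets had 1 library far from the rest. Chance marks about 5% of independent sets. ENSRNOG00000020151 stood at 4.96 CPM in old trained replicate 3, against 3.23 to 3.31 CPM in the other old trained libraries. ENSRNOG00000057031 stood at 3.99 CPM in young trained replicate 2, where the others reached 0.467 CPM at most, and at 5.86 CPM in old sedentary replicate 3, against 22.9 to 25.6 CPM in the others. ENSRNOG00000012478 was marked at 0.0878 CPM in young trained replicate 1 and at 0 CPM in old trained replicate 1, each a matter of 1 count.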

How the results depend on the processing

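In the low class 63.7% of genes were undetermined, and little can be said of those. The low class also had the largest share of called genes, 7.42%, against 3.49% in the middle class and 2.31% in the high class. Whether more depth would change these shares was not tested. The 663 called genes were 569 to 953 in the alternatives other than a left-out library and limma voom with quality weights, which gave 1929, with 737 higher and 1192 lower (38.2% higher, against 20.2%). The cause was not tested. The higher genes numbered 254 with the DESeq2 Wald test and 223 in the 8 libraries alone. Leaving out 1 library gave 264 to 915 called genes, 41 to 257 higher and 223 to 658 lower. Whether the replicate numbers paired the rats was not settled. The deviations of same-numbered old trained and young sedentary libraries had correlations of 0.30, 0.12, 0.06 and -0.17. The replicate block gave 827 genes, and 2 of the 4 old trained libraries correlated best with their own number. With the block the SE went from 1.02 to 0.34 for ENSRNOG00000012478 and from 0.90 to 0.57 for ENSRNOG00000057031. It went from 0.42 to 0.39 for ENSRNOG00000046850 and from 0.34 to 0.37 for ENSRNOG00000020151. With 1 surrogate variable 715 genes were called, 590 of them among the 663, and with a variable from unscaled counts, added after the data were seen, 759. Leaving out young sedentary replicate 1 gave 718 called genes, 589 of them among the 663. The first surrogate variable thus came close to leaving out that library and is no separate check. Genes at the young level numbered 5036 with a margin of 0.32 on the log2 scale and 9481 to 10270 with 1 library left out. The 227 genes for age in sedentary rats became 909 with DESeq2, 457 with limma voom, 560 with the replicate block, 44 with 1 surrogate variable and 38 to 2007 with 1 library left out. The excess distance of 0.159 was 0.106 without a filter and 0.135 to 0.190 with 1 library left out. ENSRNOG00000046850 lost its call without a filter (edgeR adjusted p = 0.0721) and with 1 surrogate variable (edgeR adjusted p = 0.0891). ENSRNOG00000020151, ENSRNOG00000012478 and ENSRNOG00000057031 kept direction and call in all 25 alternatives.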
